A study of Mus musculus with 16 samples.

Results

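Collagens, laminins and integrins are the fibrous proteins, the basement membrane proteins and the cell surface receptors through which an animal cell builds and holds its surrounding matrix. The genes were chosen by symbol alone, as the protein-coding genes whose GENCODE symbol is Col followed by a digit, Lama, Lamb or Lamc followed by a digit, or Itga or Itgb followed by a digit or by d, e, l, m, v or x. This rule found 87 of the 53379 genes counted, of which 44 encode collagen chains, 11 encode laminin chains and 27 encode integrin chains. The other 5 match the symbols but encode no chain of these families (Col4a3bp, Itgb1bp1, Itgb1bp2, Itgb3bp and Itgbl1), and they are described apart. Counts were tested for the 83 genes with 3 or more unique molecular identifiers (UMIs) in at least 1 of the 16 libraries. Col3a1, Col4a3, Itgam and Itgb2l fell below that level.

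RNA pulled down with an antibody to Sox2, a transcription factor of pluripotent cells, was sequenced from male mouse embryonic stem cells (mESC) kept on gelatin in medium with 1000 U/mL LIF, 1 uM of the MEK inhibitor PD0325901 and 3 uM of the GSK3 inhibitor CHIR99021. The cells were crosslinked with formaldehyde (fRIP), which also holds RNA that lies near Sox2, or with UV light (UV-RIP), which links RNA in direct contact. In each crosslinker 4 immunoprecipitated (IP) libraries, numbered 3 to 6, have an input library each from the same lysate. All groups share the cell line, the sex and the medium. No mock or control antibody pulldown was used here, so input was the only background against which an IP could be read. The question was which of these RNAs were over- or under-represented in the Sox2 IP, and whether the crosslinkers differed. Formaldehyde and UV were applied to separate plates, 4 to each crosslinker. A difference between crosslinkers was thus read against the spread of IP over input among plates. Anything else that differed between the sets of plates cannot be told apart from the crosslinker.

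Each collagen is built from intertwined chains, and a glycine at regular intervals along each chain lets the chains wind around each other. A laminin is a cross-shaped trimer of an α, a β and a γ chain that polymerises into basement membranes, and an integrin is an αβ pair that grips matrix outside the cell and the actin skeleton inside it. Mouse embryonic stem cells make laminin and type IV collagen and attach to them through integrins such as α6β1.

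The glycine repeat is visible in the coding sequence as an in-frame run of GGN codons, each followed by 2 further codons. All 44 collagen genes held a run of at least 20 such triplets, against 64 of 21492 protein-coding genes in all (0.298%), and none of the 11 laminin, 27 integrin and 5 other genes did. 6 stretches of 45 bases, each within 1 exon of the GRCm38 genome and read from GENCODE vM21 transcripts, are shown to set 4 collagens that were enriched with both crosslinkers (Col27a1, Col13a1, Col17a1 and Col11a2) beside 2 abundant collagens that were enriched with neither (Col18a1 and Col4a1). Each is written 5′ to 3′ on the coding strand with the GGN glycine codons in capitals.
Col27a1, exon 7, chr4:63245069-63245113, plus strand: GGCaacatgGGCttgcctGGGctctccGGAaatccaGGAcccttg
Col13a1, exon 28, chr10:61863959-61864003, minus strand: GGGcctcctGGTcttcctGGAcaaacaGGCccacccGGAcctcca
Col17a1, exon 24, chr19:47664973-47665017, minus strand: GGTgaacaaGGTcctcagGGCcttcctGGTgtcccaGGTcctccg
Col11a2, exon 14, chr17:34051274-34051318, plus strand: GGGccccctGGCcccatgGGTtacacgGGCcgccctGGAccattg
Col18a1, exon 12, chr10:77077702-77077746, minus strand: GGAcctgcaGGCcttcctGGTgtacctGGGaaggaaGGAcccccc
Col4a1, exon 3, chr8:11247051-11247095, minus strand: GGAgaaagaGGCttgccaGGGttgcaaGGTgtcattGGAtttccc
The longest run was 217 triplets in Col27a1, 44 in Col13a1, 56 in Col17a1, 338 in Col11a2, 30 in Col18a1 and 40 in Col4a1. The runs of the 4 enriched genes were thus longer than those of the other 2, but the 6 were picked by these calls. The collagens enriched in fRIP alone had runs of 32 (Col20a1), 43 (Col23a1) and 75 triplets (Col7a1). Across the 26 collagens that averaged at least 10 UMIs, Spearman's rho between run length and the log2 fold change was -0.05 in fRIP and 0.25 in UV-RIP, as a description across genes that share libraries.

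Counts per library are given as CPM, the UMIs of a gene for every 1000000 UMIs of its library. The libraries held between 12456298 and 21211537 UMIs, and 58 of the 87 genes reached a mean of 10 UMIs and 32 a mean of 100. The labelled cell type was checked against marker genes. In the inputs the 10 pluripotent markers summed to 3844 to 4545 CPM in fRIP and to 2260 to 2427 CPM in UV-RIP, although Sox2 itself was listed at 0 UMIs in all 16 libraries. The annotated Sox2 gene lies wholly inside Sox2ot on the same strand, and whether this removed its reads was not tested. Of other cell types, the 8 primitive endoderm markers summed to 7.23 to 12.99 CPM in the inputs, the 8 fibroblast markers to 2.57 to 5.94, the 8 blood markers to 2.41 to 4.08 and the 8 trophoblast markers to 54.3 to 75.1, most of it Tfap2c. The fibroblast markers Dcn, Lum and Fap and the blood markers Pf4 and Hbb-bt were at 0 in all inputs. In bulk libraries fewer cells of a type and less RNA per cell cannot be told apart.

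Laminin chains made up most of the signal. Summed over the 11 chains, the 4 fRIP inputs held 1889, 1582, 1818 and 1707 CPM in replicates 3 to 6 and the 4 UV-RIP inputs 1320, 1352, 1302 and 1316 CPM, more than the 44 collagens and 27 integrins together. Lamc1 and Lama5 alone took 42.9% to 47.5% of the CPM of all 82 chains in the fRIP inputs and 43.3% to 43.8% in the UV-RIP inputs. Per kilobase of gene body, introns included, Lama5 stood highest of the 87 genes at 9.08 CPM in the mean of the 8 inputs, followed by Lamc1 at 6.52, Itga5 at 3.40, Lamb2 at 2.84, Itgb1 at 2.03, Col18a1 at 1.94 and Itga6 at 1.86 among the chains. Per kilobase of exon the order of the leading pair turned, with 89.7 CPM for Lamc1 and 39.4 for Lama5. The collagens of connective tissue were close to the floor, with 3 to 31 UMIs of Col1a1, 0 to 4 of Col1a2 and 0 to 2 of Col3a1 in any of the 16 libraries. Members whose body lies almost wholly within another gene were at the floor too, with means of 0.69 UMIs for Col10a1 (inside Nt5dc1), 0.06 for Itgb2l (inside Igsf5) and 0 for Itgam (99.9% inside Gm49368). Whether the overlap removed their reads was not tested.

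In fRIP 10 of the 83 tested genes were enriched in the IP (12.05%), against 8.8% of all 22936 genes tested, and 2 were depleted (2.41%), against 10.7% of all genes. Enriched means a fold above 1.5 with a Benjamini-Hochberg adjusted p below 0.05 from edgeR's quasi-likelihood test, and depleted is its mirror. In UV-RIP 5 were enriched (6.02%), against 0.68% of all genes, and 2 were depleted (2.41%), against 5.53%. These counts depend on trends with gene length and GC content. With the gene-length trend removed fRIP had 6 enriched (7.23%) and 7 depleted (8.43%), against 7.49% and 7.58% of all genes, so both shares were near the background. With the transcript GC trend removed UV-RIP had 1 enriched (1.20%) and 0 depleted, against 0.493% and 3.66% of all genes, which ends 4 of the 5 enriched calls. With TMM scaling UV-RIP had 9 enriched (10.8%, against 2.20% of all genes) and 0 depleted (against 1.85%), and without replicate 3 it had 3 enriched (3.61%, against 0.663%) and 0 depleted (against 4.86%). All 5 genes enriched in UV-RIP, Col27a1, Lama5, Col11a2, Col13a1 and Col17a1, were among the 10 enriched in fRIP, which is 50% of the fRIP list. The same overlap over all genes was not counted here, so it cannot be called particular to these families. The study reports that most of its own UV-RIP list was also found by fRIP. At a mean of 100 UMIs or above, 5 of 32 were enriched in fRIP against 11.5% of all such genes, and 4 of 32 in UV-RIP against 0.607%. At that depth 1 of 32 was depleted in fRIP against 15.4%, and in UV-RIP none was by edgeR, at an unadjusted p below 0.05 with that fold or by DESeq2, against 6.22%. All 4 IPs lay above all 4 inputs for 17 of the 83 in fRIP, against 15.3% of all genes, and for 18 in UV-RIP, against 4.93%. All 4 lay below for 6 and 7, against 19.2% and 25%. Without the fold threshold, at adjusted p below 0.05, 18 of the 83 were higher and 7 lower in the fRIP IP, against 17.6% and 21.9% of all genes, and 21 were higher and 7 lower in the UV-RIP IP, against 6.6% and 29%.

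Family medians were set beside those of all genes, without a test. The median log2 fold change of the 42 tested collagens was 0.29 in fRIP and 0.15 in UV-RIP, that of the 11 laminins 0.00 and 0.10, and that of the 25 integrins 0.05 and 0.03, beside medians over all genes of -0.03 and -0.17. The spread of these medians over the 4 pairs of IP and input was 0.08 (SD) for collagens, 0.11 for laminins and 0.06 for integrins in fRIP, and 0.08, 0.05 and 0.09 in UV-RIP. Scaling by TMM factors in place of total UMIs moved the all-gene median in UV-RIP from -0.17 to 0.01, and those of the collagens, laminins and integrins to 0.32, 0.28 and 0.21, so UV-RIP values below are to be read against a zero that this choice shifts. With a trend of fold change on gene length taken out, the fRIP medians became -0.02 for collagens, -0.33 for laminins and -0.01 for integrins.

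**Figure D1:**
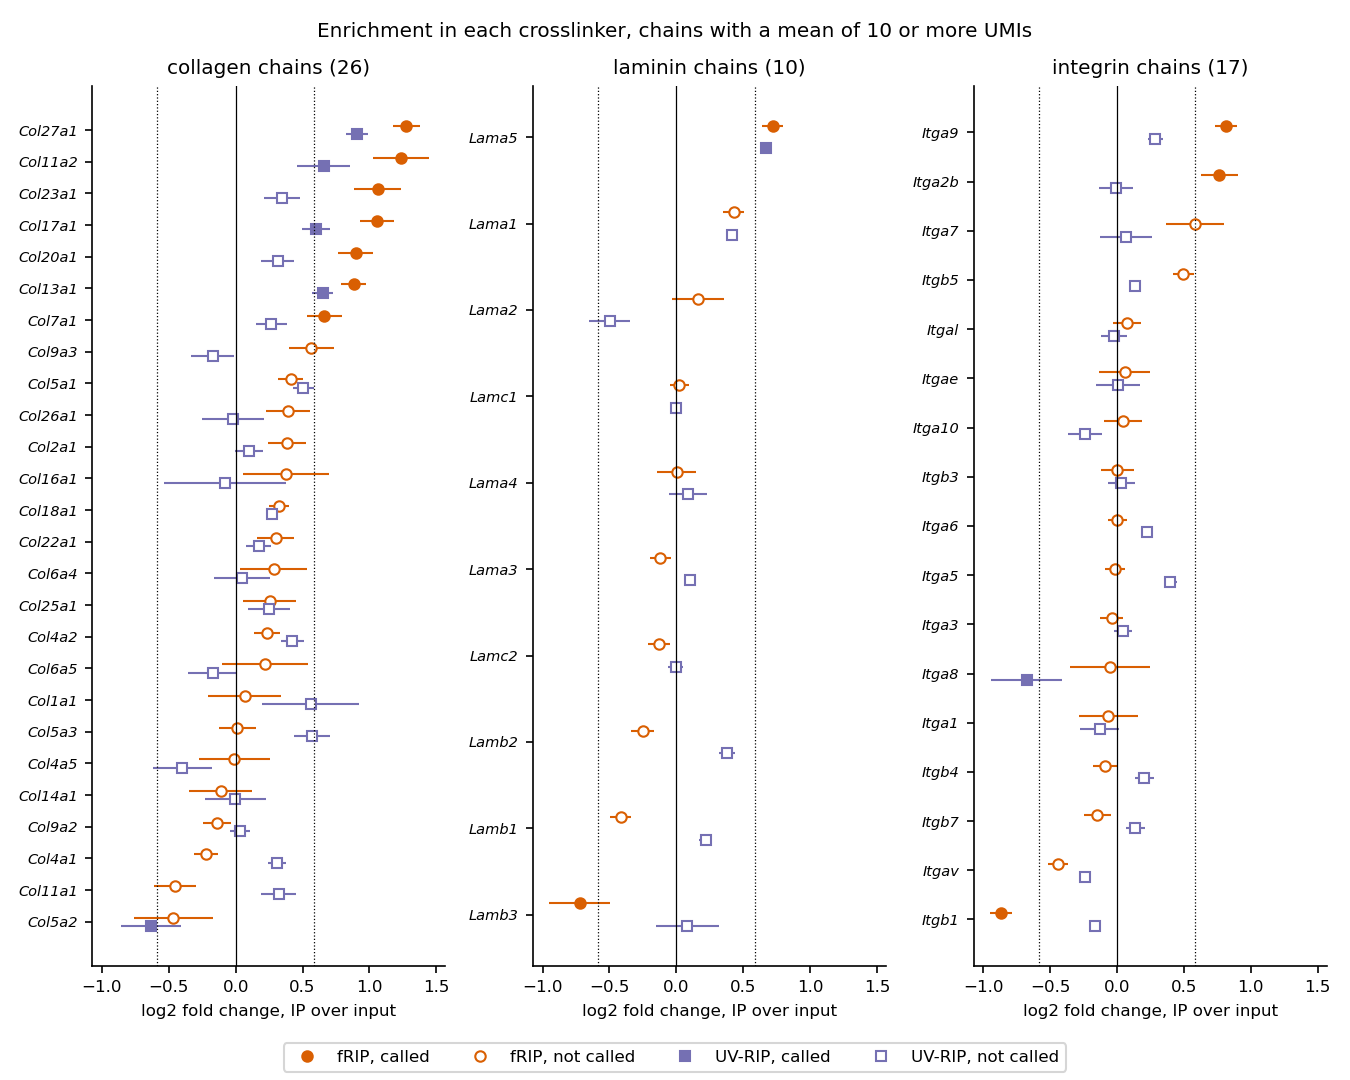
Log2 fold change of IP over input (x axis) for each chain with a mean of 10 or more UMIs, with collagen, laminin and integrin chains in separate panels and genes sorted by their fRIP value. Circles are fRIP and squares UV-RIP, bars are standard errors, filled symbols are genes called enriched or depleted, and dotted lines mark a 1.5-fold change. The 7 called collagens in fRIP lie at the top of their panel, and Lamb1, Lamb2 and Itgb1 lie left of their UV-RIP values.

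Lama5 encodes the α5 chain of laminin-511 and laminin-521, on which pluripotent cells attach, and it (ENSMUSG00000015647.9) spans bases 180176373 to 180225859 of GRCm38 chromosome 2, minus strand. Its 4 fRIP IP libraries held 857, 888, 938 and 795 CPM in replicates 3 to 6, and its inputs held 573, 433, 588 and 528. In UV-RIP the IPs held 603, 575, 571 and 596 CPM and the inputs 365, 367, 377 and 361. Every IP lay above every input in both crosslinkers. The log2 fold change was 0.72 in fRIP (SE 0.08, edgeR adjusted p = 1.05e-07) and 0.67 in UV-RIP (SE 0.04, edgeR adjusted p = 7.7e-69), and the difference of 0.05 (SE 0.09) did not pass the interaction test (edgeR adjusted p = 0.785). The fRIP value was 0.58 with the length trend removed and the UV-RIP value 0.51 with a trend on transcript GC content removed, both under the 1.5-fold threshold.

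Lama1, the α1 chain of laminin-111, the laminin of the early embryo, rose by less. It held 135, 130, 128 and 131 CPM in the fRIP IPs and 109, 83.7, 94.1 and 104 in the inputs. In the UV-RIP IPs it held 102, 97.2, 93.3 and 104 CPM, against 76.3, 78.7, 72.4 and 69.5 in the inputs. The groups did not overlap in either crosslinker, and the log2 fold changes of 0.43 (edgeR adjusted p = 9.36e-05) and 0.42 (edgeR adjusted p = 3.95e-19) were below the fold threshold. With the length trend removed the fRIP value fell to 0.07 (edgeR adjusted p = 0.539). Lama3, an α chain of epithelial laminin-332, had log2 fold changes of -0.12 and 0.10, neither past the test (edgeR adjusted p = 0.248 and 0.064). It was called depleted in fRIP with the length trend removed (-0.59, edgeR adjusted p = 1.3e-06) and was higher in the UV-RIP IP with TMM scaling (0.28, edgeR adjusted p = 1.66e-10), DESeq2's median-of-ratios factors (0.27) or library sizes without Gm26917 and Gm42418 (0.25). Lama2, the α chain of muscle laminin, named after its values were seen, was at 0.16 and -0.50, a difference of 0.66 (SE 0.23, edgeR adjusted p = 0.0358) that was called in 5 of 13 alternatives and lost, among others, without replicate 3 (0.53) or replicate 5 (0.64).

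Lamc1, the γ1 chain shared by most laminins and the partner of both Lama1 and Lama5, showed no such shift. Its fRIP IPs held 927, 796, 855 and 809 CPM and its inputs 915, 766, 852 and 804. In UV-RIP the IPs held 627, 659, 644 and 662 CPM and the inputs 646, 677, 627 and 649. IP and input overlapped in both, with log2 fold changes of 0.02 (SE 0.07, edgeR adjusted p = 0.851) and -0.00 (SE 0.04, edgeR adjusted p = 0.963). This holds for scaling by total UMIs: by TMM factors the UV-RIP value was 0.18 (edgeR adjusted p = 1.34e-07), and with the length trend removed the fRIP value was -0.31 (edgeR adjusted p = 0.00081).

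Lamb1 and Lamb2, of the 3 β chains of laminin, differed between the crosslinkers. Lamb1, the β1 chain (ENSMUSG00000002900.16, chromosome 12, 31265234 to 31329644, plus strand), held 59.3, 59.3, 60.9 and 63.5 CPM in the fRIP IPs and 80.8, 86.8, 78.9 and 77.6 in the inputs. In UV-RIP its IPs held 78.0, 81.7, 79.8 and 78.8 CPM and its inputs 70.4, 67.1, 67.6 and 68.4. All IPs thus lay below the inputs in fRIP and above them in UV-RIP. The log2 fold change was -0.41 (SE 0.08, edgeR adjusted p = 0.00014) in fRIP and 0.22 (SE 0.05, edgeR adjusted p = 1.15e-05) in UV-RIP, and the interaction test gave a difference of -0.63 (SE 0.09, edgeR adjusted p = 4.33e-06).

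Lamb2, the β2 chain (chromosome 9, 108479736 to 108490530, plus strand), moved the same way. It held 25.7, 28.2, 33.1 and 29.6 CPM in the fRIP IPs against 32.2, 35.7, 37.0 and 33.4 in the inputs, lower in 4 of 4 pairs although the groups overlapped. In UV-RIP it held 38.0, 31.0, 34.8 and 34.4 CPM in the IPs and 27.3, 29.1, 25.3 and 24.9 in the inputs, with no overlap. The log2 fold changes of -0.25 (SE 0.09, edgeR adjusted p = 0.0209) and 0.38 (SE 0.06, edgeR adjusted p = 1.66e-09) differed by -0.62 (SE 0.11, edgeR adjusted p = 6.94e-05). The fRIP value alone did not pass without replicate 3 (-0.22, edgeR adjusted p = 0.145) or replicate 6 (-0.28, edgeR adjusted p = 0.059), with TMM scaling, without the replicate block, by DESeq2, or with the length trend removed (-0.11, edgeR adjusted p = 0.386). Lamb3, the β chain of laminin-332, was depleted in fRIP at a log2 fold change of -0.72 (SE 0.23, edgeR adjusted p = 0.0129) on 20 to 37 UMIs a library there, and did not pass in UV-RIP (0.08, edgeR adjusted p = 0.858). The difference of -0.81 did not pass (edgeR adjusted p = 0.0672), though it did in 3 of 11 alternatives. Its fRIP call was lost without replicate 4 (-0.53) and by DESeq2 with total UMIs (adjusted p = 0.0994) or median-of-ratios factors (adjusted p = 0.126), and Hsd11b1 overlaps 31.2% of its gene body on the other strand.

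**Figure D2:**
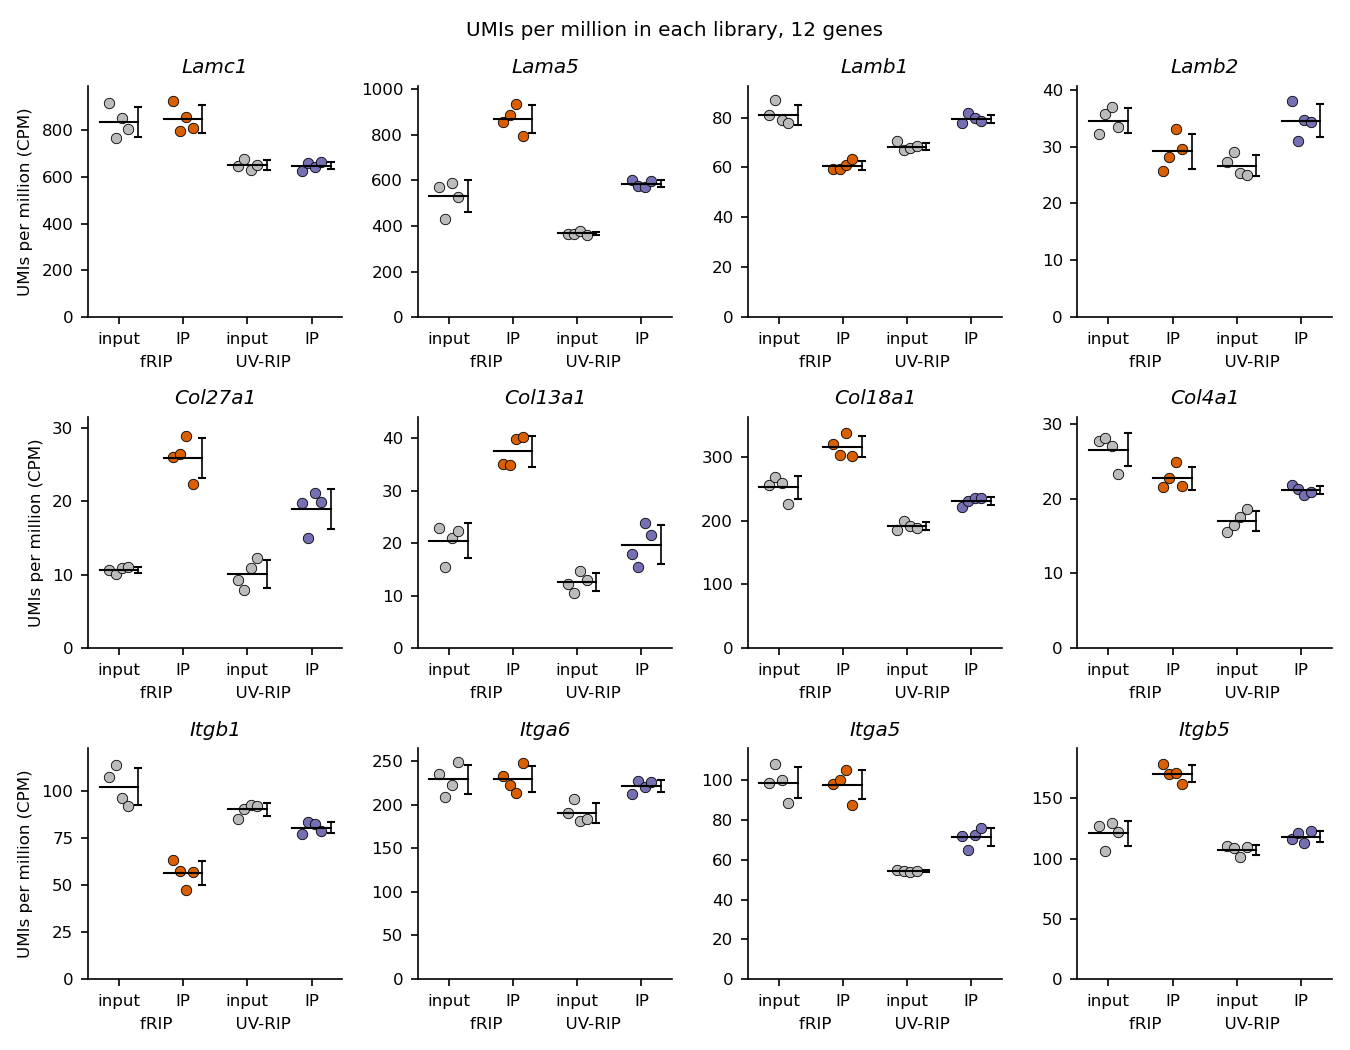
CPM in each library for 12 genes, with input and IP of fRIP and of UV-RIP along the x axis. Points are the 4 libraries of a group, horizontal lines their means and vertical bars the SD, on axes that start at 0. Lama5, Col27a1 and Col13a1 are higher in all IPs of both crosslinkers, Lamc1 overlaps its inputs, and Lamb1 is lower than input in fRIP and higher in UV-RIP.

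Among collagens 7 of 42 were enriched in fRIP (16.7%, against 8.8% of all genes) and none was depleted (against 10.7%), with none depleted at an unadjusted p below 0.05 and a fold above 1.5 either, and none by DESeq2, whereas with the length trend removed 5 were enriched (11.9%, against 7.49%) and 2 depleted (4.76%, against 7.58%). In UV-RIP 4 were enriched (9.52%, against 0.68%) and 1, Col5a2, was depleted (2.38%, against 5.53%). The enriched count was 1 with the GC trend removed (2.38%, against 0.493%), 2 without replicate 3 (4.76%, against 0.663%) and 7 with TMM scaling (16.7%, against 2.20%). Col27a1, a fibrillar collagen of cartilage (ENSMUSG00000045672.15, chromosome 4, 63214004 to 63334991, plus strand), led both lists. It held 25.9, 26.4, 28.9 and 22.4 CPM in the fRIP IPs and 10.7, 10.1, 10.9 and 11.0 in the inputs. In UV-RIP the IPs held 19.8, 14.99, 21.1 and 19.9 CPM and the inputs 9.23, 7.93, 10.9 and 12.2. Every IP lay above every input, at a 2.42-fold change in fRIP (log2 1.28, SE 0.10, edgeR adjusted p = 6.99e-10) and a 1.87-fold change in UV-RIP (log2 0.91, SE 0.08, edgeR adjusted p = 3.95e-28). Both calls held in all 14 alternative settings. The difference of 0.37 in favour of fRIP (edgeR adjusted p = 0.0344) was lost in 9 of 13 alternatives, among them the length trend removed (0.09, edgeR adjusted p = 0.723), TMM scaling (0.25, edgeR adjusted p = 0.176) and leaving out replicate 3 (0.42), replicate 5 (0.33) or replicate 6 (0.37).

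The transmembrane collagens, which sit in the cell membrane with the triple helix outside, were the collagen subgroup with the highest fRIP median, 0.97 over 4 genes, and 3 of the 4 were enriched, against 8.8% of all genes. Of these, Col17a1 alone remained so with the length trend removed (0.94). Col13a1, found at cell adhesion sites, held 35.0, 34.9, 39.9 and 40.2 CPM in the fRIP IPs and 22.9, 15.5, 20.98 and 22.4 in the inputs. In UV-RIP its IPs held 18.004, 15.4, 23.9 and 21.5 CPM and its inputs 12.1, 10.5, 14.7 and 12.9. The groups were apart in both, with log2 fold changes of 0.88 (SE 0.10, edgeR adjusted p = 6.71e-08) and 0.65 (SE 0.08, edgeR adjusted p = 1.66e-16). Both fell under the threshold with the length trend removed (0.51 and 0.57), and the UV-RIP value did with the GC trend removed (0.48). Col17a1, the collagen of hemidesmosomes, rose by 1.06 in fRIP (SE 0.13, edgeR adjusted p = 2.9e-07), from 3.80 to 5.35 CPM in the inputs to 8.80 to 9.97 in the IPs. In UV-RIP it rose by 0.60 (SE 0.11, edgeR adjusted p = 8.96e-08), just above the fold threshold, and fell under it without replicate 3 (0.55) or replicate 5 (0.58) or with the GC trend removed (0.45). The difference of 0.46 (edgeR adjusted p = 0.0372) was lost in 9 of 13 alternatives, among them TMM scaling (0.34) and leaving out replicate 3 (0.53), replicate 4 (0.36) or replicate 6 (0.38). Col23a1 was enriched in fRIP at 1.06 (SE 0.18, edgeR adjusted p = 2.67e-05) on 22 to 82 UMIs a library, and fell under the fold threshold with the length trend removed (0.56, edgeR adjusted p = 0.0147). In UV-RIP it was at 0.35 (edgeR adjusted p = 0.0348, not passed without replicate 3, 5 or 6) with overlapping groups, a difference of 0.72 (SE 0.21, edgeR adjusted p = 0.0107) that was lost without replicate 3 (0.71, edgeR adjusted p = 0.0524) or replicate 4 (0.58, edgeR adjusted p = 0.0617) and with the length trend removed (0.33).

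Col11a2, a fibrillar chain of cartilage, was enriched in both on few counts. Its fRIP IPs held 62, 88, 83 and 60 UMIs and its inputs 23, 15, 20 and 33. Its UV-RIP IPs held 36, 30, 43 and 38 UMIs and its inputs 16, 18, 20 and 23. The log2 fold changes were 1.24 (SE 0.21, edgeR adjusted p = 3.09e-05) and 0.66 (SE 0.20, edgeR adjusted p = 0.00327), and the UV-RIP call was lost in 3 of 14 alternatives, without replicate 3 (0.56), by DESeq2 with total UMIs (0.66, adjusted p = 0.104) and with the GC trend removed (0.38, edgeR adjusted p = 0.142). Its partner chain Col11a1 went the other way in fRIP, at -0.45 (SE 0.16, edgeR adjusted p = 0.024), and was higher in the UV-RIP IP at 0.32 (SE 0.13, edgeR adjusted p = 0.0364). Its fRIP IPs held 2.63 to 3.10 CPM, below the 3.16 to 4.36 of the inputs, and its UV-RIP groups overlapped. Neither value passed by DESeq2 or without replicate 3 (-0.44 and 0.27) or replicate 4 (-0.38 and 0.26), nor did the fRIP value without replicate 5 (-0.45) or the UV-RIP value without replicate 6 (0.35). The difference between the crosslinkers was -0.78 (SE 0.19, edgeR adjusted p = 0.00301). Col20a1 and Col7a1 complete the fRIP list with log2 fold changes of 0.90 and 0.66, the latter under the fold threshold without replicate 4 (0.54). They were named after their values were seen, as are Col5a1, Itga9 and Itga7 below.

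Col18a1, the basement membrane collagen that releases endostatin, was the collagen with the most UMIs. It held 321, 304, 338 and 303 CPM in the fRIP IPs and 256, 268, 260 and 227 in the inputs. In UV-RIP it held 222, 232, 236 and 236 CPM in the IPs and 186, 200, 192 and 188 in the inputs. All IPs lay above the inputs, but by 1.25-fold (log2 0.33, SE 0.07, edgeR adjusted p = 0.000858) and 1.21-fold (log2 0.27, SE 0.04, edgeR adjusted p = 5.07e-11), and the fRIP value was -0.01 with the length trend removed. With the GC trend removed the values were 0.16 (edgeR adjusted p = 0.0841) and 0.05 (edgeR adjusted p = 0.344). Col5a1 was likewise higher in both IPs, at 0.41 and 0.50, without passing the fold threshold.

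Col4a1 and Col4a2 encode the chains of the basement membrane network that every animal tissue carries, and lie head to head on chromosome 8, with Col4a1 on the minus strand starting at 11312826 and Col4a2 on the plus strand starting at 11312805, so that their annotated starts overlap. Col4a1 held 21.6, 22.8, 24.9 and 21.6 CPM in the fRIP IPs and 27.8, 28.1, 27.1 and 23.3 in the inputs, lower in 4 of 4 pairs. In UV-RIP it held 21.8, 21.2, 20.5 and 20.9 CPM in the IPs, above the 15.5, 16.4, 17.5 and 18.6 of the inputs. The log2 fold changes of -0.22 (SE 0.09, edgeR adjusted p = 0.0509) and 0.31 (SE 0.07, edgeR adjusted p = 5.62e-05) differed by -0.54 (SE 0.11, edgeR adjusted p = 0.000646). The fRIP value passed in 5 alternatives and was -0.56 with the length trend removed (edgeR adjusted p = 2.27e-05). Col4a2 held 17.8, 18.2, 19.5 and 19.03 CPM in the fRIP IPs, 17.3, 15.7, 15.8 and 14.3 in their inputs, 12.4, 10.4, 14.2 and 12.7 in the UV-RIP IPs and 9.39, 9.37, 8.40 and 9.91 in theirs. Its log2 fold changes were 0.24 (edgeR adjusted p = 0.0553) and 0.42 (edgeR adjusted p = 8.07e-06), and their difference of -0.18 (SE 0.14) did not pass (edgeR adjusted p = 0.373), but did with the length trend removed (-0.48, edgeR adjusted p = 0.0139). The fRIP value also passed in 5 alternatives, among them TMM scaling (0.28, edgeR adjusted p = 0.0229). With the GC trend removed its UV-RIP value was 0.20 (edgeR adjusted p = 0.0679). The antisense gene Gm15419 overlaps 13.7% of the body of Col4a2. Whether counts of overlapping genes were kept apart by strand is not given in the sources used here.

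Of the chains with few UMIs, Col5a2 was depleted in UV-RIP at -0.63 (SE 0.22, edgeR adjusted p = 0.0148), with 12, 15, 20 and 26 UMIs in the IPs and 27, 25, 21 and 21 in the inputs. The call was lost without replicate 3 (-0.43) or replicate 4 (-0.53) and with TMM scaling (-0.45). Col9a3, a cartilage collagen, was at 0.57 in fRIP (edgeR adjusted p = 0.00835, and 0.0691 without replicate 5) and at -0.17 in UV-RIP (edgeR adjusted p = 0.484), with a difference of 0.75 (SE 0.25, edgeR adjusted p = 0.0244) that was lost without replicate 3 (0.57). Col9a2, the partner of Col9a3, with 14.9 to 22.5 CPM in the fRIP libraries and 15.2 to 17.1 in the UV-RIP libraries, overlapped between IP and input in both, at -0.14 and 0.03, with -0.33 in fRIP once the GC trend was removed (edgeR adjusted p = 0.0119) and 0.21 in UV-RIP with TMM scaling (edgeR adjusted p = 0.0168).

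Integrins were called at shares near or below those of all genes in fRIP, where 2 of the 25 tested were enriched (8%, against 8.8%) and 1 was depleted (4%, against 10.7%). In UV-RIP none was enriched by edgeR (against 0.68%), none at an unadjusted p below 0.05 with the same fold, and none by DESeq2, and 1, Itga8, was depleted (4%, against 5.53%). Itgb1, the β1 chain that pairs with most α chains (ENSMUSG00000025809.15, chromosome 8, 128685654 to 128733200, plus strand), had the lowest fRIP value of the 58 genes that averaged at least 10 UMIs. It held 63.3, 57.7, 47.6 and 56.8 CPM in the fRIP IPs and 108, 114, 96.2 and 92.3 in the inputs. In UV-RIP the IPs held 77.4, 83.5, 82.7 and 78.6 CPM and the inputs 85.3, 90.7, 93.0 and 92.3. All IPs lay below the inputs in both crosslinkers, at a 0.549-fold level in fRIP (log2 -0.87, SE 0.08, edgeR adjusted p = 9.68e-09) and 0.891-fold in UV-RIP (log2 -0.17, SE 0.04, edgeR adjusted p = 0.000859). The fRIP call and the difference of -0.70 (SE 0.09, edgeR adjusted p = 1.67e-06) held in every alternative setting run, whereas the UV-RIP value was 0.01 with TMM scaling.

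Itga6 and Itga5, whose products pair with that of Itgb1, overlapped between IP and input in fRIP. Itga6, of the laminin receptor α6β1, held 233, 223, 214 and 248 CPM in the fRIP IPs and 235, 209, 223 and 249 in the inputs, which overlap. In UV-RIP it held 212, 228, 220 and 226 CPM in the IPs, above the 190, 206, 181 and 184 of the inputs. Its log2 fold changes were 0.00 (edgeR adjusted p = 0.986) and 0.22 (SE 0.04, edgeR adjusted p = 1.75e-07). With the length trend removed the fRIP value was -0.33 (edgeR adjusted p = 0.000766). The difference of -0.22 (edgeR adjusted p = 0.0367) was lost without replicate 3 (-0.23), replicate 5 (-0.18) or replicate 6 (-0.19). Itga5, of the fibronectin receptor, held 98.2, 99.9, 105 and 87.6 CPM in the fRIP IPs against 98.8, 108, 99.9 and 88.6, and 71.9, 65.0, 72.7 and 76.0 in the UV-RIP IPs against 54.6, 54.5, 53.7 and 54.1. It was level in fRIP (-0.01, edgeR adjusted p = 0.914) and higher in the UV-RIP IP (0.40, SE 0.05, edgeR adjusted p = 1.92e-15), a difference of -0.41 (SE 0.09, edgeR adjusted p = 0.000646).

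Itgav, the αv chain of the vitronectin receptors, was lower in both IPs. It held 91.9, 83.6, 76.4 and 89.0 CPM in the fRIP IPs against 120, 123, 105 and 115 in the inputs, and 97.4, 95.5, 103 and 96.9 in the UV-RIP IPs against 116, 113, 120 and 116. The groups were apart, at -0.44 (SE 0.08, edgeR adjusted p = 4.5e-05) and -0.24 (SE 0.04, edgeR adjusted p = 1.75e-07), the latter -0.06 with TMM scaling (edgeR adjusted p = 0.303), and Gm13684 overlaps 26.8% of its body on the other strand. Its partner Itgb5 went the other way, with 179, 170, 171 and 162 CPM in the fRIP IPs against 127, 106, 129 and 122, and 116, 121, 113 and 122 in the UV-RIP IPs against 110, 108, 101 and 110. Its log2 fold changes of 0.50 (SE 0.08, edgeR adjusted p = 1.13e-05) and 0.14 (SE 0.04, edgeR adjusted p = 0.00447) differed by 0.36 (SE 0.08, edgeR adjusted p = 0.00169), and by 0.08 (edgeR adjusted p = 0.576) with the length trend removed. Under that setting the fRIP value was 0.15 (edgeR adjusted p = 0.143) and the UV-RIP value 0.07 (edgeR adjusted p = 0.255), and with the GC trend removed the UV-RIP value was 0.04 (edgeR adjusted p = 0.528).

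Itga2b, the platelet αIIb chain, was enriched in fRIP at 0.77 (SE 0.14, edgeR adjusted p = 5.83e-05), with 7.56, 7.59, 8.06 and 8.08 CPM in the IPs and 5.46, 3.23, 4.41 and 5.43 in the inputs. In UV-RIP it was at -0.01 (edgeR adjusted p = 0.973), a difference of 0.77 (SE 0.19, edgeR adjusted p = 0.00368) that was lost without replicate 5 (0.58, edgeR adjusted p = 0.0696). Itga9, a receptor for tenascin and other ligands, was enriched in fRIP at 0.82 (SE 0.09, edgeR adjusted p = 4.42e-08), and its UV-RIP value of 0.29 differed from this by 0.53 (SE 0.10, edgeR adjusted p = 0.000241). Its fRIP value fell to 0.32 with the length trend removed. Itga7, a laminin receptor of muscle, was at 0.58 in fRIP, under the fold threshold. Itga8 was called depleted in UV-RIP on 7 to 26 UMIs a library (-0.68, SE 0.27, edgeR adjusted p = 0.0324), and the call was lost without replicate 3 (-0.62), replicate 5 (-0.67) or replicate 6 (-0.66) and without the replicate block.

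In the test of the difference between crosslinkers, 10 of the 83 genes were higher in fRIP (12.05%), against 18.6% of all genes, and 10 were lower (12.05%), against 8.07%. With TMM scaling the split was 5 higher (6.02%, against 13.4% of all genes) and 14 lower (16.9%, against 12.3%), and the median difference of all genes moved from 0.15 to 0.03. It was, with the length trend removed, 4 higher (4.82%, against 11.8%) and 17 lower (20.5%, against 5.38%). At a mean of 100 UMIs or above 5 of 32 were higher, against 34.5% of such genes, and 8 lower, against 15.9%. Of the 42 collagens 5 were higher (11.9%) and 3 lower (7.14%). Of the 11 laminins 1 was higher (9.09%) and 3 lower (27.3%), and of the 25 integrins 3 were higher (12%) and 4 lower (16%). The shares of all genes were 18.6% and 8.07%. These splits moved with the settings: TMM scaling gave 1 and 3, 0 and 5, and 3 and 6 (all genes 13.4% and 12.3%), and removal of the length trend gave 2 and 5, 0 and 7, and 1 and 5 (all genes 11.8% and 5.38%). DESeq2 gave 0 and 2 for collagens with either scaling, and for laminins and integrins 0 and 4, and 2 and 6, with median-of-ratios factors, and 0 and 3, and 3 and 3, with total UMIs. The shares of all genes by DESeq2 were 9.32% higher and 10.4% lower with median-of-ratios factors, and 14.9% and 6.01% with total UMIs. The 6 differences that held in all 13 alternatives in which they could be tested were all lower in fRIP: Col11a1, Col4a1, Lamb1, Lamb2, Itga5 and Itgb1. Of those higher in fRIP, Itga9, Itgb5 and Itgb3bp held in 12 of 13 and Itga2b in 11. Settings that lower the median difference of all genes, such as TMM scaling (0.03) and median-of-ratios factors (0.006), make calls lower in fRIP likelier to hold. The share of all genes that held in every setting was not counted.

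**Figure D3:**
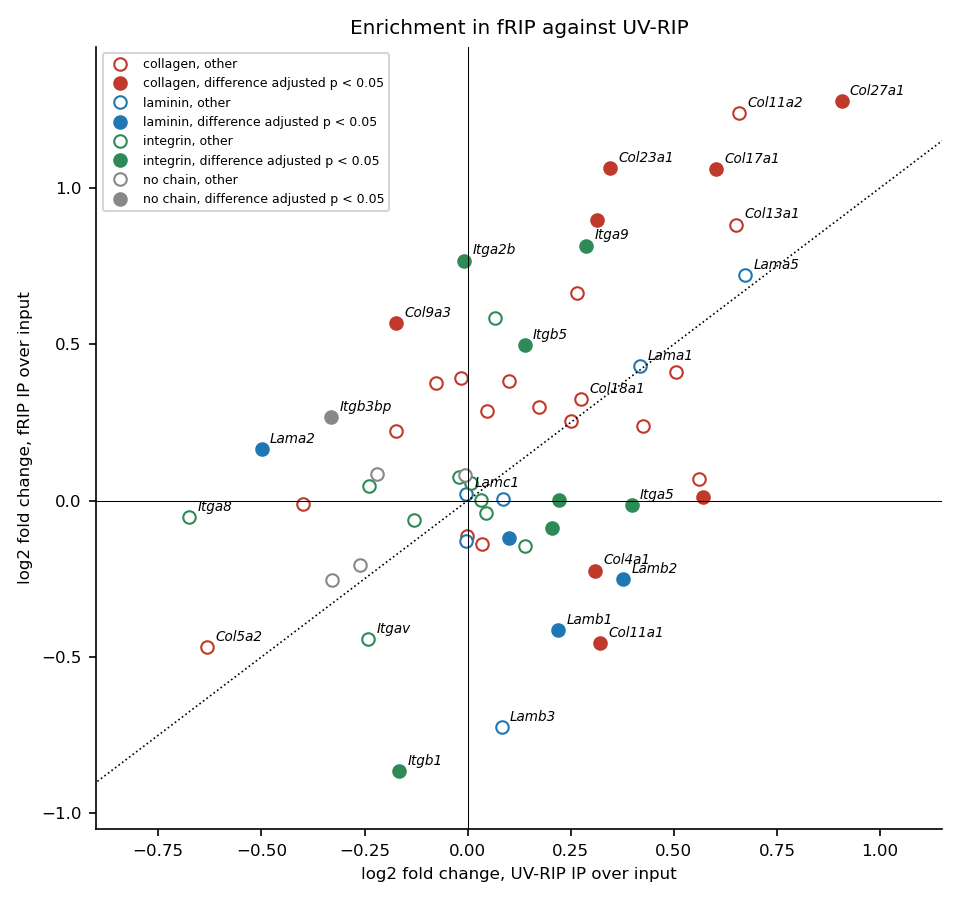
Log2 fold change in fRIP (y axis) against that in UV-RIP (x axis) for the 58 genes that averaged at least 10 UMIs, coloured by family. Filled points passed the interaction test at an adjusted p below 0.05, and the dotted line marks equal values. Lama5, Lama1, Lamc1 and Col18a1 lie near the line, Col23a1, Itga2b and Col9a3 above it, and Itgb1, Lamb1, Lamb2 and Col4a1 below it.

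The 5 genes that share the symbols but encode no chain were called neither enriched nor depleted in either crosslinker, with none at an unadjusted p below 0.05 at that fold and none by DESeq2. With the transcript GC trend removed, however, Itgb3bp was enriched in fRIP (0.65, edgeR adjusted p = 1.76e-05). Col4a3bp, a ceramide transfer protein, was lower in both IPs at -0.26 (edgeR adjusted p = 0.0121) and -0.33 (edgeR adjusted p = 7.36e-11), with all IPs below all inputs. Its fRIP value did not pass without replicate 3 (-0.27), replicate 5 (-0.19) or replicate 6 (-0.26), without the replicate block, or with the GC trend removed (-0.06). Its UV-RIP value did not pass by DESeq2 with median-of-ratios factors (-0.16, DESeq2 adjusted p = 0.0549). Itgb3bp, a centromere protein, was at 0.27 in fRIP (edgeR adjusted p = 0.0437) and -0.33 in UV-RIP (edgeR adjusted p = 8.04e-06), a difference of 0.60 (SE 0.13, edgeR adjusted p = 0.000655) that was lost with the length trend removed (0.29, edgeR adjusted p = 0.131), and Efcab7 overlaps 50.8% of its body. The fRIP value did not pass without replicate 3 (0.19) or replicate 6 (0.22), and the UV-RIP value did not with TMM scaling (-0.15) or the GC trend removed (-0.03). Itgb1bp1, Itgb1bp2 and Itgbl1 did not pass in either, although Itgb1bp2 was at 0.38 in fRIP with the length trend removed (edgeR adjusted p = 0.00664) and at -0.33 in UV-RIP without replicate 5 (edgeR adjusted p = 0.0134).

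Genes that assemble, surround or receive these proteins were counted in 3 lists. Of 19 basement membrane and matrix genes tested, 2 were enriched in fRIP (10.5%, against 8.8% of all genes), 1 was depleted (5.26%, against 10.7%), 1 was enriched in UV-RIP (5.26%, against 0.68%), and 7 were lower in fRIP in the test of the difference (36.8%, against 8.07%) with 2 higher (10.5%, against 18.6%). Smoc1 (0.72) and Fras1 (0.63), both matrix proteins, were the enriched ones in fRIP, where none of the list was with the length trend removed, and Sparc, a collagen-binding glycoprotein, the depleted one (-0.81). The one in UV-RIP was Hspg2, the proteoglycan perlecan (0.76, edgeR adjusted p = 4.67e-87), named after its value was seen. Of 31 genes of collagen assembly, 2 were enriched (6.45%, against 8.8%) and 3 depleted (9.68%, against 10.7%) in fRIP and none in UV-RIP, by edgeR, at an unadjusted p below 0.05 or by DESeq2. In the difference 5 were higher in fRIP (16.1%, against 18.6%) and 9 lower (29.0%, against 8.07%). The procollagen proteinases Adamts2 (1.19) and Adamts14 (0.80) were the enriched pair, whereas Ppib (-0.997), a prolyl isomerase, and P4hb (-0.98), a subunit of prolyl 4-hydroxylase, were depleted. Of 32 focal adhesion genes, which link integrins to actin, 6 were enriched in fRIP (18.8%, against 8.8%), led by Tns1 (1.13) and the kinase Src (0.98), and 1, the tetraspanin Cd151 (-0.92), was depleted (3.12%, against 10.7%). Only 2 were enriched in fRIP with the length trend removed (6.25%, against 7.49%), and the median fell from 0.22 to 0.02. In the difference 10 were higher in fRIP (31.2%, against 18.6%) and 4 lower (12.5%, against 8.07%). With the length trend removed 3 were higher and 6 lower (all genes 11.8% and 5.38%). With TMM scaling 9 were higher and 8 lower (all genes 13.4% and 12.3%). None of the 32 was called in UV-RIP, where 1 was higher at an unadjusted p below 0.05 and 2 by DESeq2 with median-of-ratios factors, and where TMM scaling gave 3 enriched (9.38%, against 2.20%).

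Most chains had long genes. The median gene body of the 78 chains tested was 90770 bases, against 24559 for the 16162 protein-coding genes tested, although those of Lamb2 (10795 bases), Itga2b (16826), Itga10 (18936) and Itga5 (22478), among others, were shorter than that. For the same genes the median GC content of their annotated transcripts was 53.0%, against 51.0%. Over all genes that averaged at least 10 UMIs, Spearman's rho between log2 fold change and log2 gene-body length was 0.46 in fRIP and 0.165 in UV-RIP (n = 15131), and that with transcript GC was 0.249 and 0.482 (n = 15111). Over the 53 chains of the same depth, rho with length was -0.00 and -0.07 and rho with GC 0.465 and 0.46. These are descriptions across genes, which are not independent replicates and share the same libraries. Among the genes above, Itgb1 had 44.2% GC, Lamc1 47.8%, Lama5 57.2% and Col27a1 59.5%. Lamb2 at 58.9% and Col18a1 at 60.3% show the spread at high GC, since their fRIP values were -0.25 and 0.33.

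**Figure D4:**
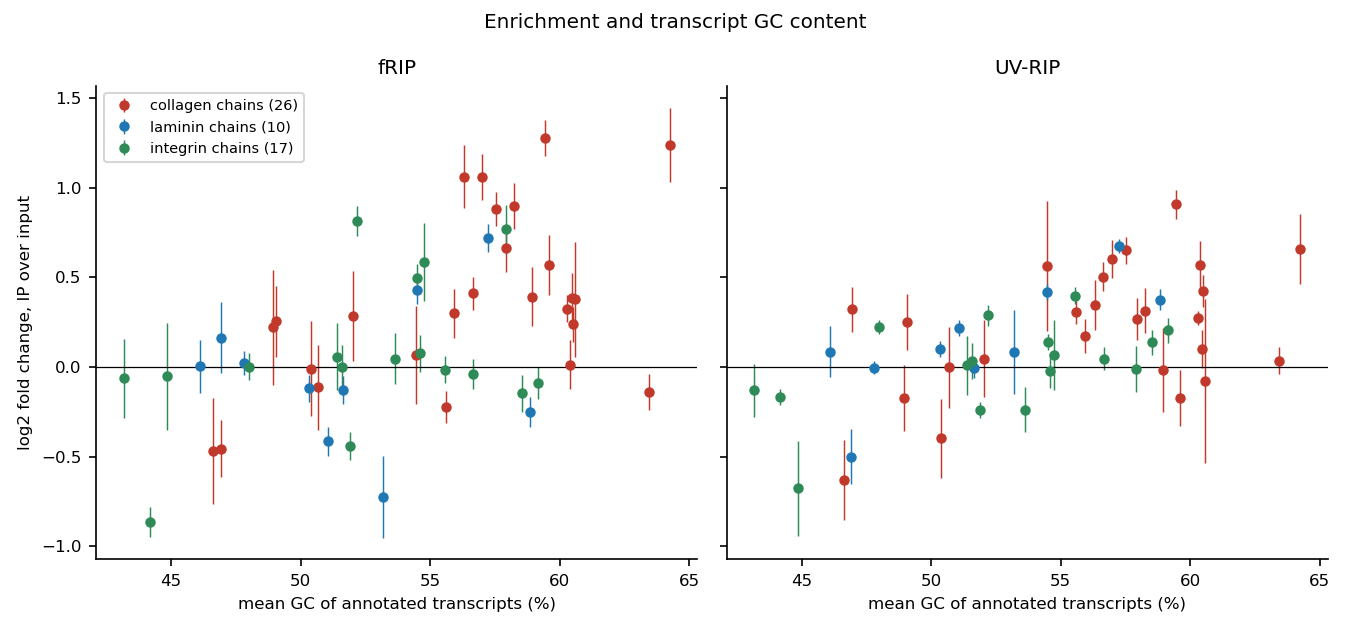
Log2 fold change of IP over input (y axis) against the mean GC content of the annotated transcripts in percent (x axis) for chains with a mean of 10 or more UMIs, in fRIP on the left and UV-RIP on the right. Points are genes coloured by family and bars are standard errors. Over all chains the points rise from left to right in both panels (rho 0.465 and 0.46) with a wide spread at every GC content. By family rho was 0.454 in fRIP and 0.277 in UV-RIP for collagens, -0.08 and 0.66 for laminins and 0.18 and 0.46 for integrins.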

How the data were processed

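The authors aligned reads by STAR, kept those with a unique position and counted unique molecular identifiers per gene body of GENCODE vM16 with featureCounts, so the deposited counts are raw UMI counts that include introns and are not normalized. The submitters' processing notes name mm10. Whether counting used strand is not given in the sources used here. Each of the 16 libraries was sequenced from rRNA-depleted RNA of fRIP or UV-RIP, with 4 replicates per group and 12456298 to 21211537 UMIs per library, and genes with few UMIs have wide errors. The study describes the replicates of both crosslinkers as biological.

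For each crosslinker, edgeR 4.0.16 (quasi-likelihood F test, R 4.3.3) tested IP against input for the 22936 genes that reached 3 UMIs in any of the 16 libraries. Library size was total UMIs and the replicate number was a block, since IP and input of a number come from the same lysate. The deviations of same-numbered libraries correlated at 0.114 to 0.601 in fRIP and 0.029 to 0.441 in UV-RIP over 10208 genes. Calls needed a fold above 1.5 and a p below 0.05 after Benjamini-Hochberg adjustment over all those genes. The difference between crosslinkers was an interaction over all 16 libraries with the plate as block, called at an adjusted p below 0.05. Alternatives were TMM factors, DESeq2 1.42.0 with total UMIs or median-of-ratios factors, other count filters, no block, 1 joint fit, library sizes without Gm26917 and Gm42418, trends on gene length or transcript GC removed, no fold threshold, and each replicate left out.

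Genes and lists were chosen with earlier results of these data known. Named genes are the chains of laminin-111, laminin-511, laminin-521 and type IV collagen, Itga5, Itga6, Itgav, Itgb1, Itgb5, Col1a1, Col1a2, Col3a1, the 4 most abundant genes of each family, the 4 largest calls in each direction and crosslinker and the 2 largest differences in each direction with a mean of 10 or more UMIs (calls moving the same way in 4 of 4 pairs), the 5 genes that encode no chain, and up to 2 genes in each direction of each partner list. Coordinates and sequences are from GENCODE vM21 on GRCm38, matched by identifier and version for 75 of the 87 genes. Coordinates are given for matched genes. Protein sequences were not used here.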

Additional observations from a re-analysis of the deposited data

Results flagged for a closer look

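Of 76 sets of 4 libraries or pairs examined, 3 held a value apart from the other three by Dixon's criterion, where chance gives about 1 in 20. The pairwise log2 ratio of Lamb2 in UV-RIP was 0.092 in replicate 4 and 0.46 to 0.48 in the others, and that of Itgb5 in UV-RIP was 0.076 in replicate 3 and 0.16 in the others. The summed collagen level of the fRIP inputs was 388 CPM in replicate 6 and 425 to 427 CPM in the others.

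The effect differed between the crosslinkers for 15 named genes by edgeR's interaction test, and the log2 differences, fRIP minus UV-RIP, follow. Those lower in fRIP were Col11a1 (-0.78), Itgb1 (-0.70), Lamb1 (-0.63), Lamb2 (-0.62), Col4a1 (-0.54), Itga5 (-0.41), Itga6 (-0.22) and Lama3 (-0.22). Those higher in fRIP were Itga2b (0.77), Col9a3 (0.75), Col23a1 (0.72), Itgb3bp (0.60), Col17a1 (0.46), Col27a1 (0.37) and Itgb5 (0.36). That of Lama3 was lost without replicate 3 (-0.23), replicate 5 (-0.18) or replicate 6 (-0.25), without the count filter and without the replicate block, and that of Col17a1 without replicate 3 (0.53), replicate 4 (0.36) or replicate 6 (0.38), with TMM scaling and without the block. With the length trend removed those of Itgb3bp (0.29), Col23a1 (0.33), Col17a1 (0.34), Col27a1 (0.09) and Itgb5 (0.08) were lost, and the other 10 passed. In these differences the crosslinker cannot be told apart from anything else that differed between the sets of plates.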

How the results depend on the processing

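Counts below are of the 83 genes tested and medians are log2 fold changes. With TMM scaling UV-RIP had 9 enriched and 0 depleted genes (all genes 2.20% and 1.85%), with medians of 0.32 for collagens, 0.28 for laminins and 0.21 for integrins, and 5 genes were higher in fRIP in the difference (all genes 13.4%). DESeq2 with median-of-ratios factors gave 1 depleted gene in fRIP (all genes 8.10%), 9 enriched and 0 depleted in UV-RIP (all genes 1.26% and 1.02%), medians of 0.44, 0.28 and 0.20, and 3 higher in the difference (all genes 9.32%). DESeq2 with total UMIs gave 1 depleted in fRIP (all genes 8.955%), 0 depleted in UV-RIP (all genes 3.80%), a UV-RIP collagen median of 0.26 and 4 higher in the difference (all genes 14.9%). Library sizes without Gm26917 and Gm42418 gave 0 depleted in UV-RIP (all genes 2.20%), medians of 0.30, 0.25 and 0.18 (all genes -0.02), and 5 higher in the difference (all genes 12.5%). A filter of 10 UMIs in 4 libraries gave a UV-RIP collagen median of 0.26. With the length trend removed fRIP had 6 enriched and 7 depleted genes (all genes 7.49% and 7.58%), medians of -0.023 for collagens and -0.33 for laminins, the UV-RIP laminin median was 0.0067, and the difference held 4 higher (4.82%, all genes 11.8%) and 17 lower (20.5%, all genes 5.38%). With the transcript GC trend removed, which was chosen after seeing the data, UV-RIP had 1 enriched and 0 depleted genes (all genes 0.493% and 3.66%) and a laminin median of 0.18. Without the fold threshold fRIP had 18 higher and 7 lower (all genes 17.6% and 21.9%) and UV-RIP 21 higher and 7 lower (all genes 6.6% and 29%). The causes were not tested.

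Without the replicate block, which pairs IP and input of a lysate, UV-RIP had 1 depleted gene (all genes 5.58%) and the difference 5 higher and 6 lower (all genes 14.3% and 5.29%). The joint fit of 16 libraries with the replicate block had 0 depleted in UV-RIP (all genes 5.03%). Leaving out each replicate in turn gave 10 to 12 enriched and 1 to 2 depleted in fRIP, 3 to 6 enriched and 0 to 1 depleted in UV-RIP, and 5 to 9 higher and 6 to 9 lower in the difference. Of all genes these were then 7.80% to 8.89% and 9.41% to 11.3%, 0.602% to 0.807% and 4.86% to 5.78%, and 13.7% to 17.7% and 5.73% to 8.40%. The medians then ran from 0.29 to 0.38 for collagens, -0.06 to 0.03 for laminins and 0.05 to 0.09 for integrins in fRIP, and from 0.16 to 0.24, 0.12 to 0.20 and -0.01 to 0.07 in UV-RIP.

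Of 1323 values of named genes under the alternatives, 1154 stayed on the same side of an adjusted p of 0.05, 124 lost it, 32 gained it and 13 changed sign while passing in one of the fits. Of the 1154, 70 changed sign without passing in either. With the length trend removed the fRIP values of Lamc1 (-0.31), Itga6 (-0.33), Col18a1 (-0.011) and Itgb3bp (-0.13) and the differences of Lama1 (-0.27) and Lamc1 (-0.24) changed sign. The UV-RIP value of Lamc1 became 0.18 with TMM, 0.17 with median-of-ratios factors and 0.15 without Gm26917 and Gm42418, and that of Itgb1 became 0.014 with TMM, 0.0071 with median-of-ratios factors and 0.0050 with the GC trend removed. That of Col9a2 became -0.23 with the GC trend removed. DESeq2 gave no adjusted p for 27 values, which were left out. A trend on the GC content of gene bodies was not run. Depth limits the 29 genes with a mean under 10 UMIs.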
